A study of Mus musculus with 6 samples.

Results

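The miR-199 and miR-214 miRNAs were measured in mouse pancreas during an acute pancreatitis model. They were taken by name, as every row of the deposited table called miR-199a, miR-199b or miR-214 with a 5p or 3p arm. This gave 6 of the table's 1414 rows. The rows of miR-199a-3p and miR-199b-3p hold the same sequence and the same counts in every library, so the 6 rows are 5 measurements, and the shared one is called miR-199-3p below. All 6 rows passed the filter on low counts, among 499 rows that did.

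The model group had 3 libraries, replicates 56, 57 and 59, and the control group had 3, replicates 43, 44 and 45. All came from whole pancreas of wild-type C57BL/6 mice of 22 to 25 g, with no age given in the labels. Model mice had 7 intraperitoneal injections of caerulein 1 hour apart, at a stated 50 mg/kg, and lipopolysaccharide (LPS) joined the last of them. Control mice had saline on the same schedule. Pancreas was collected 24 hours after modelling began. Caerulein is a cholecystokinin analogue that overstimulates the enzyme-secreting acinar cells, and LPS is a bacterial cell wall component. The effects of caerulein and of LPS cannot be told apart, as neither was given by itself. The treatment label of the model libraries also names saline, without saying where it was used. Nothing in the labels says that a library stands for a single mouse. The p-values thus rest on how much the libraries of a group vary, and part of that may be technical.

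A miRNA is cut from the base-paired stem of a hairpin transcript, which can release a mature strand from its 5p arm, its 3p arm or both. Bases 2 to 8 of the mature strand, the seed, choose most of its mRNA targets. The miR-199 and miR-214 hairpins are known for expression in mesenchymal cells. In the pancreas the stellate cell is the main such cell, and on injury it becomes a matrix-producing myofibroblast. Mir199a-2 and Mir214 are cut from a common noncoding transcript, Dnm3os. In human lung fibroblasts miR-199a-5p is known to repress caveolin-1 and to promote the response to TGF-beta. In human liver cancer cells miR-199a-3p is known to repress MET and mTOR.

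The mature sequences are shown because they decide which members can be counted apart. They are copied from the deposited table, 5′ to 3′, with the seed in capitals.
mmu-miR-199a-5p: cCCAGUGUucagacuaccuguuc
mmu-miR-199b-5p: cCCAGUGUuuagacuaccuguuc
mmu-miR-199a-3p and mmu-miR-199b-3p: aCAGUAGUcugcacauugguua
mmu-miR-214-3p: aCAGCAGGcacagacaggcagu
mmu-miR-214-5p: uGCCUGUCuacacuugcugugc
The 5p strands of miR-199a and miR-199b share their seed and were identical at 22 of 23 positions. They differed by the substitution C10U, counted from the 5′ end with the miR-199a base first, so their counts rest on a single base. No other sequence in the table had the seed CCAGUGU, and the seeds of miR-199-3p, miR-214-3p and miR-214-5p each occurred in no sequence but their own. The seeds of miR-199-3p and miR-214-3p are alike and differed by U5C and U8G, with the miR-199-3p base first.

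The hairpins are shown because 3 of them release the same 3p strand. They are the RefSeq sequences of GRCm38.p6, with both mature strands in capitals.
Mir199a-2: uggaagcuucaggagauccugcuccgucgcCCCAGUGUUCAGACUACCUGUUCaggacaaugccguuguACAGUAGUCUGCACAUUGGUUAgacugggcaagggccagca
Mir199a-1: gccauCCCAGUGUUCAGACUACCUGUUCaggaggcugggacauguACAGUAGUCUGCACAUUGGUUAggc
Mir199b: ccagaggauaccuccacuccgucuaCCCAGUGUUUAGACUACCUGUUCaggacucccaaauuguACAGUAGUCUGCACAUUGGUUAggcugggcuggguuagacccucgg
Mir214: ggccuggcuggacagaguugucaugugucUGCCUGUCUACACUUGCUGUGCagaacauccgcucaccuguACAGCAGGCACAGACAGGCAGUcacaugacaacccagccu
Mir199a-2 lies on the plus strand at chr1:162217814-162217923 and Mir214 on the same strand at chr1:162223368-162223477, with 5444 bases between them. Each lies within an exon of Dnm3os (GENCODE M21), opposite to an intron of the protein-coding Dnm3. Mir199a-1, on the minus strand at chr9:21496495-21496564, lies opposite to an intron of Dnm2, and Mir199b, on the plus strand at chr2:32318460-32318569, opposite to an intron of Dnm1. The deposited table lists miR-199a under Mir199a-2 only, but its 5p strand is encoded at 2 loci and miR-199-3p at 3. Counts of these strands therefore do not say which locus was transcribed. The miRNA miR-3120, which lies opposite to miR-214, had no row in the deposited table.

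Total miRNA counts ran from 2489009 to 3006220 in model and from 1943693 to 2629801 in control libraries. The acinar list, miR-216a, miR-216b, miR-217 and miR-148a with both arms, had all 8 of its rows past the filter on low counts. That is a weak check of the labelled tissue, since all 7 rows of a list of erythroid miRNAs passed too. The acinar list's summed level was 50615 to 54242 CPM in model and 60477 to 97105 CPM in control libraries, the highest being that of control replicate 45. CPM here means counts brought to a common library total and scaled with TMM factors, which set the typical miRNA equal between libraries. Summed over all tested rows, the level was also lower in model libraries, at 861155 to 921185 CPM, against 1011681 to 1164134 CPM in controls. A lower sum in the model is therefore not particular to that list. All 8 of its rows had a negative log2 fold change, model over control, against 248 of the 499 tested rows, and none passed the test between groups. These are whole-tissue libraries, so the cells that the miR-199 and miR-214 strands came from were not measured. Fewer cells of a type and less RNA per cell cannot be told apart in them.

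None of the 5 sequences passed the test between model and control pancreas. The most abundant, miR-199a-5p, was lower in all model libraries than in any control, and miR-199-3p, cut from the same hairpins, was higher in all of them. Neither difference passed over all rows, and miR-199b-5p, miR-214-3p and miR-214-5p overlapped between groups. With edgeR's quasi-likelihood test, 0 of 5 had an adjusted p below 0.05, where 6 of 499 tested rows (1.20%) had one. At an unadjusted p below 0.05 the count was 0 of 5, against 23.8% of all rows, and DESeq2 called 0 of 5 as well, where it called 6.17% of all rows. The groups did not overlap in 2 of 5 sequences, against 31.1% of all rows (14.4% higher and 16.6% lower in the model), so this share is near the background.

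The 5p strand of miR-199a had 975, 987 and 741 CPM in model replicates 56, 57 and 59, against 1187, 1428 and 1101 CPM in control replicates 43, 44 and 45. Every model library lay below every control library, and model replicate 59 was the lowest of all. Its mean was 901 ± 138 CPM in model and 1239 ± 169 CPM in control libraries (SD, n = 3 each). The log2 fold change of miR-199a-5p, model over control, was -0.46 (SE 0.22, 95% interval -0.98 to 0.06, edgeR adjusted p = 0.259). It ranked between 85 and 114 in abundance among the rows of each library.

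Its paralog miR-199b-5p, which has the same seed, was far scarcer, with 83.7, 72.7 and 73.2 CPM in model replicates 56, 57 and 59, against 88.9, 71.5 and 73.7 CPM in control replicates 43, 44 and 45. The groups lay on top of each other, and no library stood out. The log2 fold change of miR-199b-5p was -0.03 (SE 0.22, 95% interval -0.54 to 0.48, edgeR adjusted p = 0.964). Of the counts of both 5p strands, miR-199a-5p took 92.1% ± 1.06 in model and 94.0% ± 1.12 in control libraries (SD, n = 3 each).

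The shared strand miR-199-3p had 403, 421 and 519 CPM in model replicates 56, 57 and 59, against 369, 289 and 295 CPM in control replicates 43, 44 and 45. Every model library lay above every control library, with model replicate 59 the highest. Its mean was 448 ± 62.9 CPM in model and 318 ± 44.5 CPM in control libraries (SD, n = 3 each). The log2 fold change of miR-199-3p was 0.49 (SE 0.23, 95% interval -0.04 to 1.03, edgeR adjusted p = 0.238).

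From the hairpin that shares the Dnm3os transcript, miR-214-3p had 155, 141 and 209 CPM in model replicates 56, 57 and 59, against 97.4, 95.4 and 246 CPM in control replicates 43, 44 and 45. Control replicate 45 was the highest library of all, and the other controls were below every model library. Its log2 fold change was 0.20 (SE 0.41, 95% interval -0.76 to 1.16, edgeR adjusted p = 0.826). The value depended on single libraries: it was 0.78 without that library (edgeR adjusted p = 0.178), -0.03 without control replicate 43, -0.04 without control replicate 44 and 0.03 without model replicate 59. Control replicate 45 also stood apart in miR-125b-5p, with 14706 CPM against 2594 to 6162 CPM in the other libraries, and in the summed acinar list. Whether these go together with its miR-214-3p was not tested.

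The opposite strand miR-214-5p had 150.4, 135 and 102 CPM in model replicates 56, 57 and 59, against 102, 129 and 100.1 CPM in control replicates 43, 44 and 45. Of the model libraries, 2 lay above every control, and model replicate 59 lay among the controls. Control replicate 45, high in miR-214-3p, was the lowest library for miR-214-5p. The log2 fold change of miR-214-5p was 0.22 (SE 0.25, 95% interval -0.36 to 0.80, edgeR adjusted p = 0.661).

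**Figure D1:**
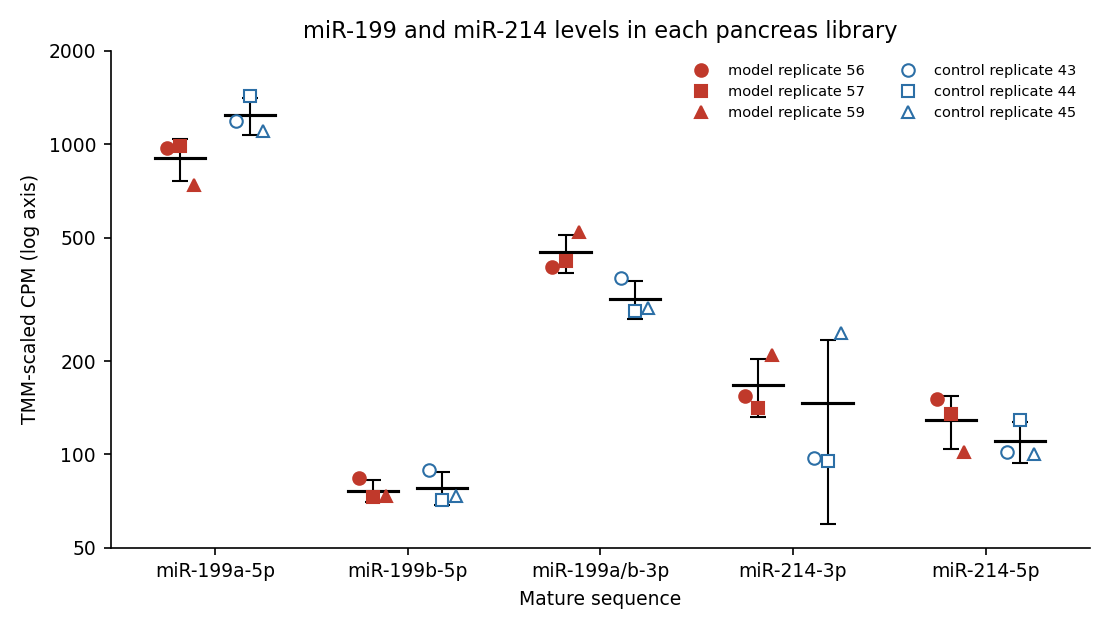
Levels of the 5 sequences in TMM-scaled CPM (log axis), with 1 point per library, model libraries filled and left of control libraries, and bars for the mean ± SD (n = 3 each). The groups are apart for miR-199a-5p (model lower) and miR-199-3p (labelled miR-199a/b-3p; model higher), and control replicate 45 lies far above the other controls in miR-214-3p.

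In each of the 6 libraries miR-199a-5p was the most abundant member and miR-199-3p the next, and miR-199b-5p was the lowest, at 71.5 to 88.9 CPM. Between them, miR-214-3p and miR-214-5p changed places from library to library, with means over all libraries of 157 and 120 CPM. Summed, the 5 sequences had 1722 ± 67.8 CPM in model and 1891 ± 106 CPM in control libraries (SD, n = 3 each). As a share of all miRNA counts, with no scaling factors, they took 0.191% ± 0.00057 in model and 0.171% ± 0.0134 in control libraries, which is the opposite order.

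**Figure D2:**
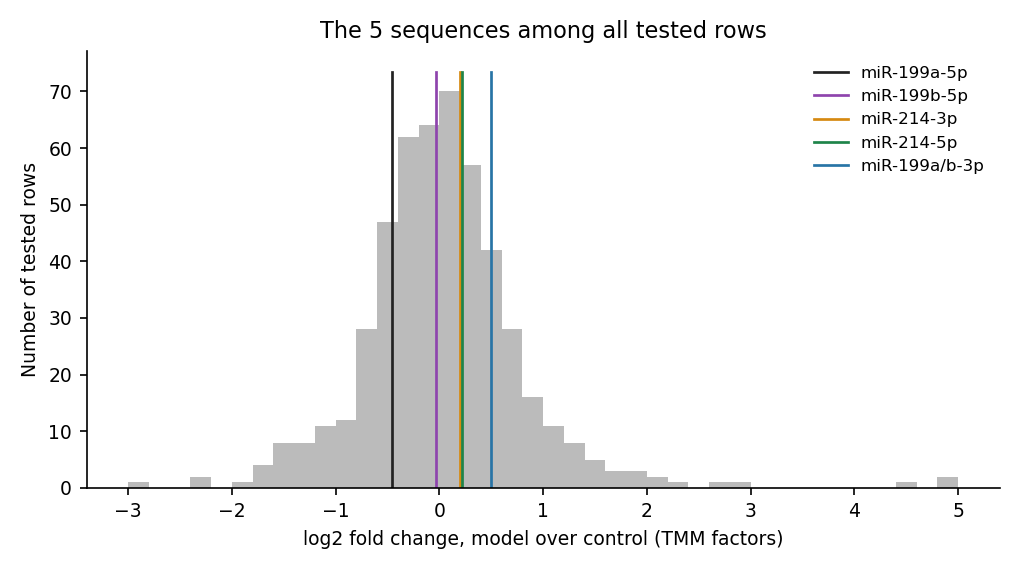
Histogram of the log2 fold changes, model over control, of all 499 tested rows with TMM factors, and 1 vertical line per sequence, whose height has no meaning. The lines lie between -0.46 and 0.49, within the bulk of the rows, whose median was 0.00.

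The ratio of 5p to 3p counts within a library is free of the scaling between libraries. For miR-199a the 5p strand outnumbered the 3p strand in every library, and by less in the model. The ratio of 5p to 3p counts was 2.42, 2.35 and 1.43 in model replicates 56, 57 and 59, against 3.22, 4.94 and 3.73 in control replicates 43, 44 and 45, without overlap. On the log2 scale, with 1 count added to each arm, it was 1.01 ± 0.43 in model and 1.96 ± 0.31 in control libraries (SD, n = 3 each). The difference was -0.96 (SE 0.35, 95% interval -1.78 to -0.13), with an unadjusted p of 0.0284 in limma and a limma adjusted p = 0.254 over 125 hairpins. It is not a call: 1 of 125 hairpins (0.800%), that of miR-21a, passed the adjusted threshold, none of the 3 here did, and 14.4% had an unadjusted p below 0.05.

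For miR-199b, whose 5p strand was scarcer than the shared 3p strand in every library, the ratio has the same 3p counts as its denominator. The ratio was 0.208, 0.173 and 0.141 in model replicates 56, 57 and 59, against 0.241, 0.247 and 0.249 in control replicates 43, 44 and 45. The controls lay within a narrow band, and the model libraries lay below them and spread more widely. The difference on the log2 scale was -0.52 (SE 0.29, 95% interval -1.20 to 0.16, limma adjusted p = 0.437). Since miR-199-3p serves both hairpins, the 5p strands were also summed over it, a setting chosen after seeing the data, which gave -0.93 (SE 0.34, limma adjusted p = 0.272). The 3p strand was 31.6% ± 6.34 of all miR-199 counts in model and 19.6% ± 3.17 in control libraries (SD, n = 3 each).

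For miR-214 both arms were close to equal in model replicates 56 and 57 and control replicate 43. The ratio was 0.971, 0.959 and 0.487 in model replicates 56, 57 and 59, against 1.05, 1.36 and 0.406 in control replicates 43, 44 and 45. The low values were those of control replicate 45 and model replicate 59, the libraries with the most miR-214-3p, and the groups overlapped. The difference on the log2 scale was -0.12 (SE 0.53, 95% interval -1.37 to 1.14, limma adjusted p = 0.965), and it was -0.63 without control replicate 45, 0.05 without control replicate 43, 0.23 without control replicate 44 and 0.21 without model replicate 59. Groups did not overlap in 2 of the 3 hairpins, which share their 3p counts, against 20.0% of all hairpins.

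**Figure D3:**
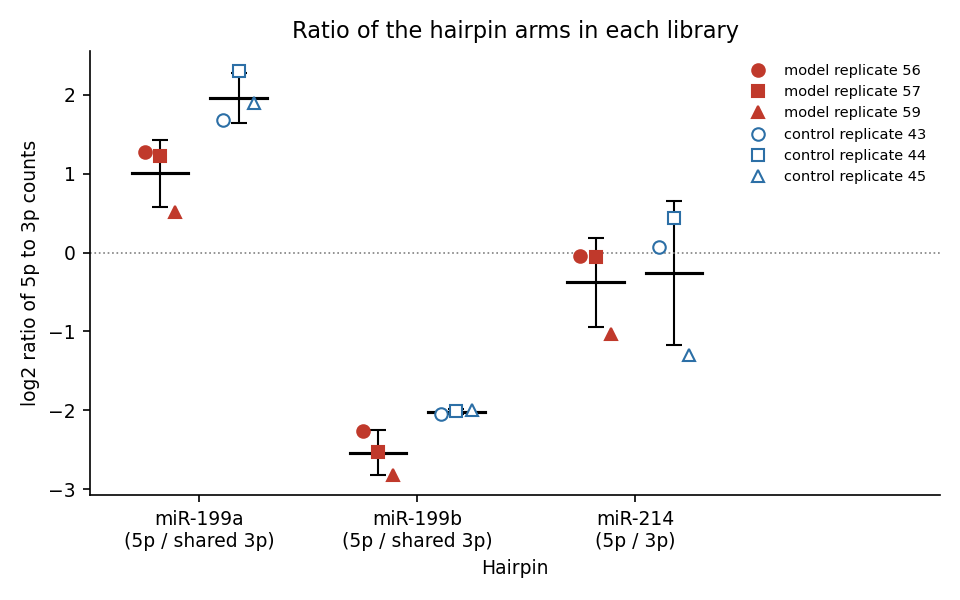
Log2 ratio of 5p to 3p counts, with 1 count added to each, for the 3 hairpins, with 1 point per library, model libraries filled and left of control libraries, and bars for the mean ± SD (n = 3 each). The model libraries lie below the controls for miR-199a and miR-199b, which share their 3p strand, while miR-214 overlaps.

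Ratios within the family were compared over libraries with a two-sided exact permutation test, which cannot give a p below 0.1 with 3 libraries against 3. These ratios have 1 count added to each strand. The ratio of miR-199a-5p to miR-199b-5p was 11.6, 13.5 and 10.1 in model replicates 56, 57 and 59, against 13.3, 19.8 and 14.8 in control replicates 43, 44 and 45 (exact p = 0.2, adjusted p = 0.3 over 3 ratios). Its groups overlapped in model replicate 57 and control replicate 43. The ratio of miR-199a-5p to miR-199-3p, which is the miR-199a arm ratio above and no further evidence, had an exact p = 0.1, the smallest possible, and an adjusted p = 0.3. The ratio of miR-214-3p to miR-199-3p was 0.385, 0.335 and 0.402 in model replicates 56, 57 and 59, against 0.265, 0.331 and 0.834 in control replicates 43, 44 and 45 (exact p = 1, adjusted p = 1). Model libraries were alike in it, and control replicate 45 was far above the rest. The difference of its log2 values was -0.17 with all libraries and 0.33 without control replicate 45.

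The sign of the log2 fold change depended on the scaling for miR-199a-5p, miR-199b-5p, miR-214-3p and miR-214-5p, as the plot of fold changes by scaling shows. That of miR-199-3p was positive under all 14 alternatives of the fit, from 0.20 to 1.26. With the library totals behind the authors' own RPM values, which moved the median over all rows by 0.79 on the log2 scale, all 5 sequences had positive values. Those of miR-199-3p (1.26, edgeR adjusted p = 0.0279), miR-214-3p (1.09, edgeR adjusted p = 0.0447) and miR-214-5p (0.99, edgeR adjusted p = 0.0495) then passed. That is 3 of 5, where 24.5% of all rows passed and nearly all of these were higher, 24.1% of rows. The value of miR-199a-5p was 0.32 (edgeR adjusted p = 0.490) and that of miR-199b-5p 0.72 (edgeR adjusted p = 0.131). With upper quartile factors, which moved the median by -0.29, miR-199a-5p was at -0.74 (edgeR adjusted p = 0.117), miR-199-3p at 0.20, miR-214-3p at -0.081 and miR-214-5p at -0.056, and 0 of 5 passed, against 9.02% of all rows. With total counts alone, which moved it by 0.30, miR-199a-5p was at -0.17, miR-199b-5p at 0.26 and miR-199-3p at 0.79 (edgeR adjusted p = 0.126), and 0 of 5 passed, against 3.61% of all rows.

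In the authors' own RPM values, miR-199a-5p averaged 119 ± 23.7 RPM in model and 95.4 ± 23.9 RPM in control libraries, and the groups overlapped. By the same measure miR-199-3p averaged 59.5 ± 13.7 RPM in model and 24.8 ± 8.51 RPM in control libraries (SD, n = 3 each), and every model library lay above every control. The same held for miR-199b-5p, miR-214-3p and miR-214-5p, so 4 of 5 sequences were higher without overlap, against 49.5% of all rows.

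**Figure D4:**
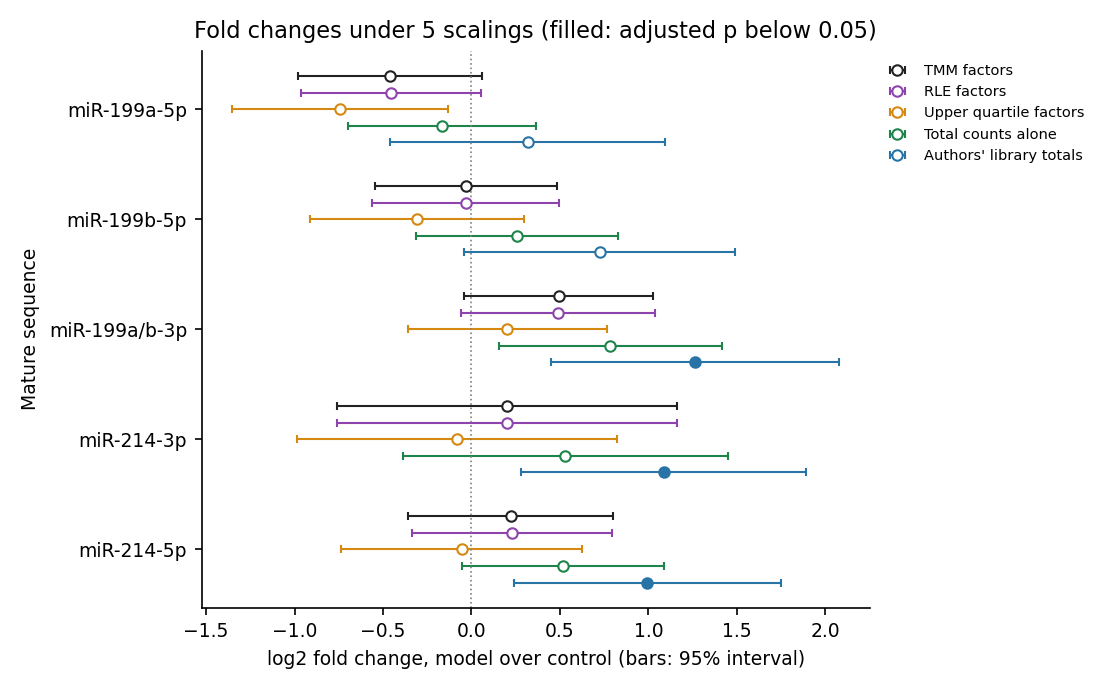
Log2 fold changes, model over control, of the 5 sequences under 5 scalings, with 95% intervals and filled points where the edgeR adjusted p was below 0.05. Points move right from upper quartile factors to total counts to the authors' library totals, under which the 3 filled points appear, and miR-199a-5p lies left of miR-199-3p (labelled miR-199a/b-3p) under each scaling.

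Other miRNAs known from mesenchymal cells did not pass in the main edgeR fit or in DESeq2 either. The mesenchymal list held both arms of miR-143, miR-145a, miR-145b, miR-140, miR-152, miR-100, miR-99a, miR-125b and miR-10b. Of 15 tested rows, 0 passed in edgeR and 0 in DESeq2, and at an unadjusted p below 0.05 there were 2 higher and 2 lower. Over all rows, in either direction, 1.20% passed in edgeR, 6.17% in DESeq2, and 23.8% had an unadjusted p below 0.05. Its median log2 fold change was -0.13, against 0.00 for all tested rows. The most abundant, miR-99a-5p, averaged 25609 ± 2226 CPM in model and 36771 ± 5127 CPM in control libraries (log2 fold change -0.52, edgeR adjusted p = 0.0802). It passed as lower with upper quartile factors (log2 fold change -0.81, edgeR adjusted p = 0.0363) and without a filter (-0.54, edgeR adjusted p = 0.034). Smooth muscle miR-143-3p averaged 15570 ± 1621 CPM in model and 18644 ± 5529 CPM in control libraries (log2 fold change -0.26, edgeR adjusted p = 0.537). For miR-125b-5p the log2 fold change was -0.52 (edgeR adjusted p = 0.693) and 0.54 without control replicate 45. Summed, the list's rows had 56973 to 61761 CPM in model and 66172 to 84456 CPM in control libraries, many times the level of the miR-199 and miR-214 strands. The sum over all tested rows was lower as well, at 861155 to 921185 CPM in model and 1011681 to 1164134 CPM in control libraries. A lower sum in the model is therefore not particular to this list.

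A list linked to fibrosis held both arms of miR-21a, which is induced in many fibrotic tissues, and of miR-29a, miR-29b and miR-29c, which repress collagen mRNAs. Of 8 tested rows 1 was higher and 0 were lower in edgeR, with a median log2 fold change of 0.12. At an unadjusted p below 0.05, and likewise in DESeq2, 2 were higher and 0 lower. The shares of all rows, in either direction, were 23.8% and 6.17%, and 1.20% in edgeR. The call was miR-21a-3p, at 736 ± 262 CPM in model and 31.2 ± 16.2 CPM in control libraries (edgeR log2 fold change 4.55, SE 0.47, with an adjusted p = 0.0077). Its partner miR-21a-5p averaged 20877 ± 2050 CPM in model and 12256 ± 1970 CPM in control libraries (log2 fold change 0.77, edgeR adjusted p = 0.0564). It passed in DESeq2 (adjusted p = 0.0475), and in edgeR with total counts alone (adjusted p = 0.0206), with the authors' totals (adjusted p = 0.00138) and without a filter (adjusted p = 0.00238). The log2 fold changes of miR-29a-3p and miR-29b-3p were 0.13 (edgeR adjusted p = 0.654) and -0.16 (edgeR adjusted p = 0.786). With the authors' totals miR-29a-3p passed as higher (0.92, edgeR adjusted p = 0.0296), as did 24.1% of all rows.

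Markers of other cells in the tissue moved as follows. Of 9 tested rows of the leukocyte list 1 was higher and 0 were lower in edgeR, with a median log2 fold change of 0.56. At an unadjusted p below 0.05, and likewise in DESeq2, 3 were higher and 0 lower. For this and the lists that follow, the shares of all rows are the background. In either direction these were 23.8% unadjusted, 6.17% in DESeq2 and 1.20% in edgeR. The call was miR-223-3p, the miRNA of neutrophils and other myeloid cells, at 2160 ± 60.8 CPM in model and 321 ± 129 CPM in control libraries (edgeR log2 fold change 2.75, SE 0.31, with an adjusted p = 0.0077). The log2 fold change of miR-142a-3p, found in all leukocytes, was 1.45 (edgeR adjusted p = 0.111). It passed in DESeq2 (adjusted p = 0.0253), and in edgeR with the authors' totals (adjusted p = 0.0114) and without a filter (adjusted p = 0.000125). That of lymphocyte miR-150-5p was -0.35 (edgeR adjusted p = 0.735). The whole list summed to 5181 to 10800.4 CPM in model and 4780 to 7101 CPM in control libraries. Of the acinar list 0 of 8 passed in edgeR, with a median of -0.49, while 3 were lower at an unadjusted p below 0.05 and 1 was lower in DESeq2. Of the islet, epithelial, endothelial and erythroid lists 0 of 7, 0 of 9, 0 of 2 and 0 of 7 passed in edgeR and 0 in DESeq2, with medians of -0.11, -0.06, -0.12 and -0.11. At an unadjusted p below 0.05 these lists had 1, 3, 1 and 0 rows lower and 0 higher. No row of these lists was at 0 in every library. The part of these cells in the miR-199 and miR-214 levels was not tested.

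The miRNAs whose pattern over the 6 libraries was most like that of miR-199a-5p were taken from 195 known miRNAs of at least 100 CPM on average, by Pearson's r of log2(CPM + 1). They were miR-378a-3p (r = 0.97), miR-99a-5p (r = 0.95), let-7i-5p (r = 0.94), the endothelial miR-126a-3p (r = 0.93) and let-7b-5p (r = 0.93). All 5 had negative log2 fold changes with TMM factors, from -0.18 for let-7i-5p to -0.52 for miR-99a-5p, and 0 of them passed in edgeR. The 6 points share the scaling factors and the difference between groups, and miR-99a-5p is the sole one of the 5 in the mesenchymal list.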

How the data were processed

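Per the labels' protocols, a gel slice of 18 to 30 nt supplied the RNA, and its adapters carried molecular identifiers. The authors deposited read counts per mature miRNA row, with no normalization, and RPM values, each count divided by a library total of 22055639 to 27876715 recovered here from both columns. Not given in the sources used here are what that total counts and whether identifiers were collapsed. Intervals cover the spread between libraries only. The submitters' processing notes name Bowtie2 and GRCm38.p6 without a role. Ligation bias can distort levels between strands, and whether it acts alike in all libraries was not tested.

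For the counts the tool was edgeR 4.0.16 under R 4.3.3 (filterByExpr with minimum count 10 and total 15, TMM factors, robust quasi-likelihood test, Benjamini and Hochberg's adjustment over 499 rows, threshold 0.05), after tests on simulated data. In the simulated counts edgeR called 21 of 83 rows changed by 1 on the log2 scale (25.3%) and 102 of 111 changed by 2. It also called 3 of 299 unchanged rows. Changes of the size seen in the 5 sequences can therefore be missed. A count of 0 would have allowed 0.896 to 1.80 CPM. Arm ratios were tested with limma 3.58.1 for 125 hairpins whose arms each averaged 10 counts or more. DESeq2 1.42.0, other scalings, no filter, 1 row per sequence, another dispersion method and leaving out each library were alternatives. Chi-square per degree of freedom between replicates was 99.9 to 268, so no library copied another. RefSeq names matched 5 of the 6 rows. Members and the 9 lists, 8 of which had a row, were chosen with earlier results of these data known. Named were all members, the 3 most abundant tested rows of each list, the 5 miRNAs most like the most abundant member and rows sharing a seed; of 5 lists only counts are given, and miR-21a-3p was named after its values were seen.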

Additional observations from a re-analysis of the deposited data

How the results depend on the processing

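No paired analysis was possible because the replicate numbers of the groups (56, 57, 59 and 43, 44, 45) share none. Among the 5 sequences, 0 were called under 13 of 14 alternatives, and 3 were higher with the authors' library totals. Over all rows, edgeR called 5 higher and 1 lower, against 8 lower with RLE factors (7 higher), 17 higher with total counts, 39 lower with upper quartile factors, 121 higher and 2 lower with the authors' totals, 23 and 35 without a filter, 17 and 16 with DESeq2 and 2 lower with the newer dispersion. Leaving out 1 library gave 3 to 5 higher and 0 to 5 lower, with 3 higher without control replicate 44 or 45 or model replicate 57 and 5 lower without control replicate 43. Over the lists, 2 were higher and 0 lower, against 4, 14, 6 and 5 higher with total counts, the authors' totals, no filter and DESeq2, 1, 6, 5 and 1 lower with RLE factors, upper quartile factors, no filter and DESeq2, and 0 to 1 lower without 1 library. The cause was not tested.

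Signs turned as follows. With the authors' totals the log2 fold change was 0.32 for miR-199a-5p, 0.72 for miR-199b-5p, 0.27 for miR-99a-5p, 0.51 for miR-143-3p, 0.40 for miR-125b-5p, 0.67 for miR-29b-3p and 0.48 for miR-150-5p. With total counts it was 0.26 for miR-199b-5p, 0.041 for miR-143-3p and 0.15 for miR-29b-3p. With upper quartile factors it was -0.081 for miR-214-3p, -0.056 for miR-214-5p and -0.15 for miR-29a-3p. Leaving out 1 library gave -0.10 to 0.059 for miR-199b-5p (positive without control replicate 43 or model replicate 57 or 59), -0.036 to 0.78 for miR-214-3p (negative without control replicate 43 or 44), -0.92 to 0.54 for miR-125b-5p and -0.37 to 0.12 for miR-29b-3p (positive without control replicate 45) and -0.93 to 0.066 for miR-150-5p (positive without model replicate 56). For the arm ratio of miR-214 it gave -0.63 to 0.23, and for the ratio of miR-214-3p to miR-199-3p -0.50 to 0.33. The arm ratio of miR-199a was negative under every alternative run, from -1.09 to -0.71 without 1 library (limma adjusted p = 0.203 to 0.576). The SE did not follow the counts: miR-199b-5p, the scarcest with 123 to 245 counts per library, had an SE of 0.22, as did miR-199a-5p with 1837 to 3219.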
